A study of Homo sapiens with 9 samples.

Results

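HUADI lncRNAs are the 1632 genes of the deposited count table whose identifiers start with HUAD, out of 57163 genes in all. They were chosen by this identifier alone, with no use of a measured value, and were compared in detection, exon length and change between libraries. The other genes of the table were 19329 lncRNAs with CATG identifiers, 14239 lncRNAs and 19818 mRNA genes with Ensembl identifiers, and 2145 other Ensembl genes. The methods name GENCODE, FANTOM5 and earlier studies of the authors as sources of the annotation. Neither the files nor the methods say how the HUADI lncRNAs were assembled.

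The libraries came from 293T cells, an established and transformed line of human embryonic kidney. Cells received a plasmid from which an EF1A promoter drives the open reading frame of 1 TF, and RNA was taken 48 h later. The CLB_TFs, which the study selected for binding at promoters of conserved lncRNAs, were NRF1, E2F4, EGR1 and ZBTB7A. For comparison served HOXA11, RORA, NKX2-8 and TFCP2, named control TFs, and the control library had an empty plasmid by the methods and is called blank in the labels. Each of the 9 conditions had 1 library, so every difference from the control library describes a pair of libraries with no replicate check. The comparison asked how this catalogue of lncRNAs responds to each TF.

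Long noncoding RNAs are transcripts with little or no coding potential, and many of them are spliced and polyadenylated like mRNAs. Most are less abundant than mRNAs and more restricted to certain tissues, so a catalogue collected over many tissues is only partly transcribed in any single cell line. Some start next to an mRNA promoter on the opposite strand, as divergent transcripts, and others lie far from known genes, where transposable elements often supply exons or promoters.

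The sequences around the starts of 4 HUADI lncRNAs show how unlike these promoters were. They are windows of members described below that rose at least 2-fold in a TF library. Each window runs from 250 bases before to 50 bases after the annotated start on GRCh37, 5′ to 3′ on the strand of the lncRNA. HUADI00000154 lies at chr1:148855595-148855894 on the plus strand, HUADI00002631 at chr7:64961495-64961794 on the minus strand and HUADI00000365 at chr10:51489049-51489348 on the minus strand. HUADI00002640 lies at chr7:76178391-76178690 on the plus strand. Capitals mark exact matches of an E2F motif, GCGGGAAA, and no other motif searched was present in these 4 windows.
HUADI00000154: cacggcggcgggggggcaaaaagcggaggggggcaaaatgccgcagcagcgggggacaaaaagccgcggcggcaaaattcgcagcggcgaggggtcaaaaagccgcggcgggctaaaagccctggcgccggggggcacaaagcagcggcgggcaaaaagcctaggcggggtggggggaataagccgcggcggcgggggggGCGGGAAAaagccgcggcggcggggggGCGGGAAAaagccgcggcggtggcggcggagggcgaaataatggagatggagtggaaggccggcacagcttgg
HUADI00002631: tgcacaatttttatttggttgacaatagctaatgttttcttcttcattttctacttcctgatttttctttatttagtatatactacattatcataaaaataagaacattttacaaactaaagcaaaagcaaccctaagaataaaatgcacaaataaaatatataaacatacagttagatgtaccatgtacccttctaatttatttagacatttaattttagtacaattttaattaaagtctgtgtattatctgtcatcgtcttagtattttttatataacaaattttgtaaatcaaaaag
HUADI00000365: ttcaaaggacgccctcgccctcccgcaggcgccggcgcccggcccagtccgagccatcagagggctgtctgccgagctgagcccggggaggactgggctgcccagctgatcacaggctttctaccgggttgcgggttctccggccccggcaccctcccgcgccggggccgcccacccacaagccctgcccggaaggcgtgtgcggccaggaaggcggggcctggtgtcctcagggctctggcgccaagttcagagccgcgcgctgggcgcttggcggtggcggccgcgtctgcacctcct
HUADI00002640: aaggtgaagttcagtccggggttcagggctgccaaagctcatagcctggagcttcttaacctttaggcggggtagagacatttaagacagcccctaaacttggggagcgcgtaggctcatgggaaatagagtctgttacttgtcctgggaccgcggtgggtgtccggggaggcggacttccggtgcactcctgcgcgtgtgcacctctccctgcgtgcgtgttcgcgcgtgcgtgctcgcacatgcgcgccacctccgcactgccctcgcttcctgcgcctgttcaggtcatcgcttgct
The window of HUADI00000154 had 70.7% G and C and 37 CpG dinucleotides, and its matches began 50 and 23 bases before the start, inside a stretch of similar units in tandem. HUADI00000365 had 74.0% G and C with 31 CpG dinucleotides, and HUADI00002640 had 61.0% with 24. HUADI00002631 had 23.0% with 1 CpG dinucleotide.

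Over all 1632 HUADI lncRNAs such CpG-rich starts were uncommon. The ratio of observed to expected CpG dinucleotides exceeded 0.6 in 129 windows, or 7.90%, against 21.1% of Ensembl lncRNAs and 56.7% of mRNA genes. Among HUADI lncRNAs the share was 5.15% of the 894 with no count in any library, 11.2% of the 738 with a count in some library and 24.8% of the 101 with counts in all 9. The median G and C content was 44.7% for HUADI lncRNAs and 59.7% for mRNA genes.
Motifs of the CLB_TFs were searched as exact letters on both strands, GCGCATGCG for NRF1, GCGGGAAA or GCGCCAAA for E2F, GCGTGGGCG or GCGGGGGCG for EGR1 and GACCACCGA for ZBTB7A. NRF1 binds a palindromic motif, so GCGCATGCG can match both strands at overlapping positions and was counted once per window. An NRF1 motif stood in 5 HUADI windows (0.306%), against 1.23% of the windows of all genes. An E2F motif stood in 13 (0.797%, against 1.55%), an EGR1 motif in 16 (0.980%, against 3.95%) and a ZBTB7A motif in 1 (0.0613%, against 0.0665%). The windows of all genes include those of mRNA genes. In CATG and Ensembl lncRNAs the shares were 0.698 and 0.794% for NRF1 and 1.08 and 0.969% for E2F. They were 2.97 and 2.23% for EGR1 and 0.0362 and 0.0702% for ZBTB7A. Of the 13 HUADI lncRNAs with an E2F motif, only HUADI00000154 reached 1 CPM (counts per 1000000 counts of the library) in the E2F4 or the control library, and 7 had no count in either. None of the 5 with an NRF1 motif, the 16 with an EGR1 motif or the 1 with a ZBTB7A motif reached 1 CPM in the library of that TF or in the control library.

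The HUADI lncRNAs were short and spliced. The median exon length was 395 bases, with quartiles of 273.75 and 723.25 and a range of 200 to 6509. CATG lncRNAs had a median of 1387 bases, Ensembl lncRNAs of 718 and mRNA genes of 4205. No HUADI lncRNA had a single exon, against 54.6% of CATG and 16.4% of Ensembl lncRNAs. 1288 of them (78.9%) had 2 exons, 344 had 3 or more, and the highest number was 9. Their 2107 introns began with GT and ended with AG, the usual splice signals, in 1914 cases (90.8%) on the annotated strand of GRCh37. The 2 strands held 813 and 819 members.
Most HUADI lncRNAs lay apart from mRNA genes. The span of 1183 (72.5%) overlapped no mRNA gene, 539 (33.0%) were more than 50 kb from any mRNA gene, and the median distance was 15091.5 bases. 1368 (83.8%) shared no exon base with another gene of the table. Exons of 118 overlapped an exon of another gene on the same strand and those of 161 on the opposite strand. The library kit is directional, but whether strand was used in counting could not be learned from the methods or labels, so counts of these overlapping members are uncertain.

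The libraries held 14177970 to 18915400 counts, the fewest in the ZBTB7A library and the most in the control library. Counts were scaled to CPM by the trimmed mean of M-values (TMM), with factors of 0.972 to 1.08. Every insert peaked in its own library, by 53.6 to 1178-fold over the mean of TF libraries without it. The control library stood apart for TFCP2, with 9812 counts against 653 to 703 in the TF libraries without that insert. This was 12.6 times the mean CPM of those libraries and 3.52% of what the TFCP2 library itself reached. Fold changes take the control library as their reference unless another is named, and whether it also holds material of the TFCP2 condition was not tested. All 6 markers of the 293T line that were listed (VIM, KRT8, KRT18, NEFM, LIN28B and PAX2) exceeded 1 CPM. Of the markers of other cell types, 1 of 5 for adipocytes, 1 of 4 for leukocytes, 0 of 3 for hepatocytes and 1 of 4 for fibroblasts did, with ADIPOQ, PTPRC, CD3E, LEP and TTR at 0 or 1 count in every library.

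HUADI lncRNAs were a minor part of the RNA. They took 1097 to 1570 counts of a library, or 0.00644 to 0.0107%, and 738 of the 1632 (45.2%) had at least 1 count in some library. This share was 44.9% for CATG lncRNAs, 54.2% for Ensembl lncRNAs and 87.9% for mRNA genes. 250 HUADI lncRNAs had counts in a single library and 101 (6.19%) in all 9. The latter share was 6.04% for CATG lncRNAs, 17.5% for Ensembl lncRNAs and 70.0% for mRNA genes. Only 28 (1.72%) reached 1 CPM in any library, against 2.47% of CATG lncRNAs, 10.2% of Ensembl lncRNAs and 67.0% of mRNA genes. A count of 0 allows up to 3 counts, so a member without counts was not detected at this depth and may still be transcribed. In RNA from a whole culture, fewer cells that express a lncRNA and less of it per cell cannot be told apart.
The NRF1 library had the most HUADI lncRNAs with a count, 376, followed by the EGR1 library with 353. The others had 314 (NKX2-8), 309 (ZBTB7A), 301 (TFCP2), 299 (E2F4), 287 (control), 280 (RORA) and 264 (HOXA11). The order did not follow depth, since the control library had the most counts. When every library was thinned to 14177970 counts, the NRF1 and EGR1 libraries still led, with 369 and 330, and the others had 243 to 310. With at least 3 counts the NRF1 library had 154, the E2F4 library 131 and the EGR1 library 120, within the range of 110 to 131 of the 8 libraries other than NRF1. The excess in the EGR1 library thus lay in members with 1 or 2 counts, of which it had 233, against 222 in the NRF1 library and 154 to 202 in the other 7.
Members seen in a single library rested on very few counts. The NRF1 library alone held 60 of them, the EGR1 library 54, the ZBTB7A library 32 and the other 6 libraries 10 to 23 each. HUADI00002113 on chromosome 4, named after its values were seen, had 4 counts in the NKX2-8 library and 0 elsewhere, and no other such member had more. The same libraries detected more of the other catalogues too. The NRF1 and EGR1 libraries had counts for 21.6 and 22.7% of CATG lncRNAs, against 16.6 to 19.1% in the other 7 libraries. For Ensembl lncRNAs the shares were 35.3 and 34.8% against 29.2 to 31.3%, and for mRNA genes 80.4% in both against 75.5 to 78.3%. No test of these differences was possible with 1 library per condition.

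**Figure D1:**
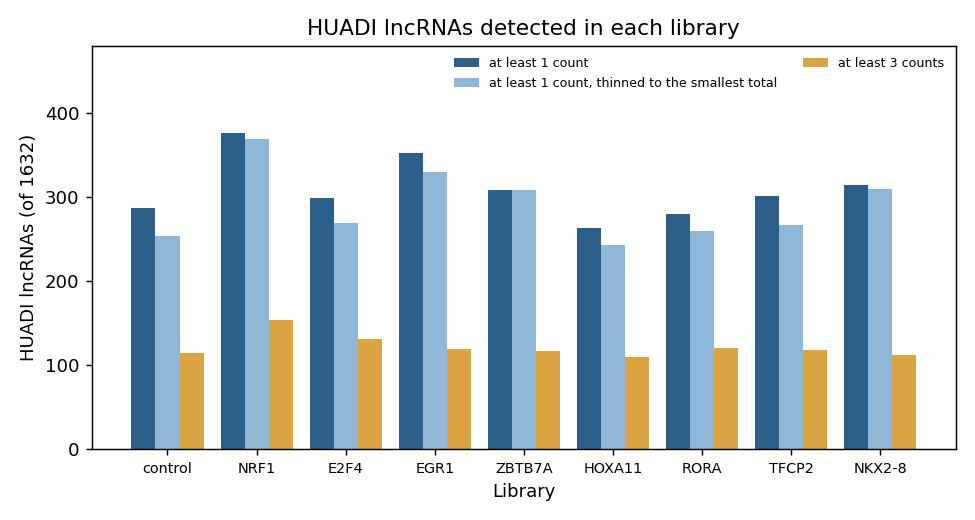
Number of the 1632 HUADI lncRNAs (vertical axis) detected in each of the 9 libraries (horizontal axis), with at least 1 count, with at least 1 count after thinning to 14177970 counts, and with at least 3 counts. The NRF1 bars are the tallest of each kind, and the EGR1 library is second for 1 count (353) but not for 3 counts (120).

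Detection was higher at longer exon length. The 408 HUADI lncRNAs of 200 to 273 bases had a count in some library in 34.1% of cases. The share was 40.7% at 274 to 395 bases, 46.6% at 396 to 723 and 59.6% at 724 to 6509. In all 9 libraries 10, 8, 26 and 57 members of these length classes had counts. The members with no count had a median exon length of 360 bases, those with counts in 1 to 8 libraries 435 and those with counts in all 9 libraries 815. The longest class took 51.6% of all HUADI counts and the shortest 8.56%. Per kilobase of exon the order was lost, with a mean of 0.0698, 0.0697, 0.100 and 0.0685 CPM per kb from the shortest to the longest class.
Compared at the same length, HUADI lncRNAs were detected more often than CATG lncRNAs. In the longest class 59.6% of HUADI, 46.5% of CATG and 63.3% of Ensembl lncRNAs had a count, and 13.97%, 6.20% and 25.3% had counts in all 9 libraries. In the shortest class the shares with a count were 34.1%, 25.6% and 35.3%. Over all lengths the shares were similar (45.2 and 44.9%), while CATG lncRNAs were longer. These shares are descriptions, with no test across lncRNAs.

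**Figure D2:**
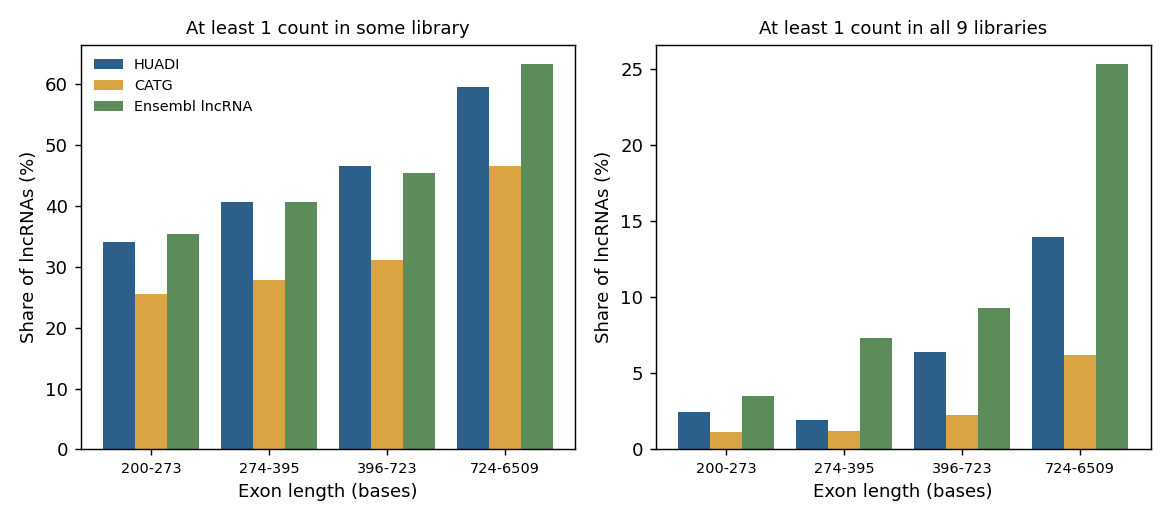
Share of HUADI, CATG and Ensembl lncRNAs (vertical axes, %) with at least 1 count in some library (left) and in all 9 libraries (right), in 4 classes of exon length in bases (horizontal axes) that split the HUADI lncRNAs about evenly. The HUADI bars rise from 34.1 to 59.6% on the left and end at 13.97% on the right, between CATG (6.20%) and Ensembl lncRNAs (25.3%).

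Position went with detection as well. Of the 53 HUADI lncRNAs that start within 1 kb of the start of an mRNA gene on the opposite strand, 41 (77.4%) had counts and 18 (34.0%) had counts in all 9 libraries. Of the 539 that lie more than 50 kb from any mRNA gene, 182 (33.8%) had counts and 14 had counts in all 9. Exon length differed little between these sets, with medians of 426 and 372 bases. The study's list of conserved lncRNAs held 26 HUADI lncRNAs, of which 12 (46.2%) had counts, close to the 45.2% of the other 1606. Only HUADI00002049 among the 26 had counts in all 9 libraries, and it is named for that after its values were seen. It is a 227-base lncRNA of 2 exons on chromosome 4, and it had 3 to 12 counts, the most in the RORA library. No conserved member reached a mean of 0.5 CPM.

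The 32 HUADI lncRNAs with a mean of at least 0.5 CPM were led by HUADI00000733, at chr12:132611703-132616397 on the plus strand, with 3.82 CPM. This lncRNA of 3133 bases lies 4742 bases from DDX51, which encodes an RNA helicase of ribosome biogenesis. It had 62 counts in the control library, 50 in NRF1, 47 in E2F4, 65 in EGR1, 45 in ZBTB7A, 71 in HOXA11, 55 in RORA, 80 in TFCP2 and 90 in NKX2-8. The NKX2-8 library was the highest and differed from the control library by a log2 fold change (log2FC) of 0.80. HUADI00000830, at chr14:24912189-24915218, starts 78 bases from the start of SDR39U1 on the opposite strand and averaged 3.24 CPM, with 33 to 72 counts. Its log2FC was -0.49 to 0.40, and that of SDR39U1 was -0.16 to 0.07.
HUADI00003098 on chromosome X averaged 2.44 CPM, with 26 to 65 counts. HUADI00001469 on chromosome 2 starts 187 bases from the start of CEP68, a centrosomal linker gene on the opposite strand, and averaged 2.13 CPM, with 28 to 41 counts. HUADI00003136 on chromosome X averaged 1.81 CPM and shares 139 exon bases with CCNQ, a cyclin gene, on the opposite strand. These 3 lncRNAs stayed within a log2FC of -0.42 to 0.73 in all 8 TF libraries.
HUADI00002614 on chromosome 7, which shares 91 exon bases with CCM2 on the opposite strand, averaged 1.74 CPM and had its most counts, 44, in the control library and its fewest, 19, in the NRF1 library, with a log2FC of -0.93 there. HUADI00000255 on chromosome 1 averaged 1.71 CPM, HUADI00001176 on chromosome 17 averaged 1.37 and HUADI00001132 on chromosome 17 averaged 1.07. Of the 10 members with the highest mean, HUADI00002640 alone passed 2-fold in any TF library. Per kilobase of exon the order changed, and HUADI00002640 led with 4.25 CPM per kb, before HUADI00002614 with 3.81, HUADI00000255 with 3.69 and HUADI00001469 with 2.97. The exon bases of HUADI00000255 have near-identical copies elsewhere over 93.7% of their length at 98% identity or more, so its level from uniquely mapped reads is uncertain.

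**Figure D3:**
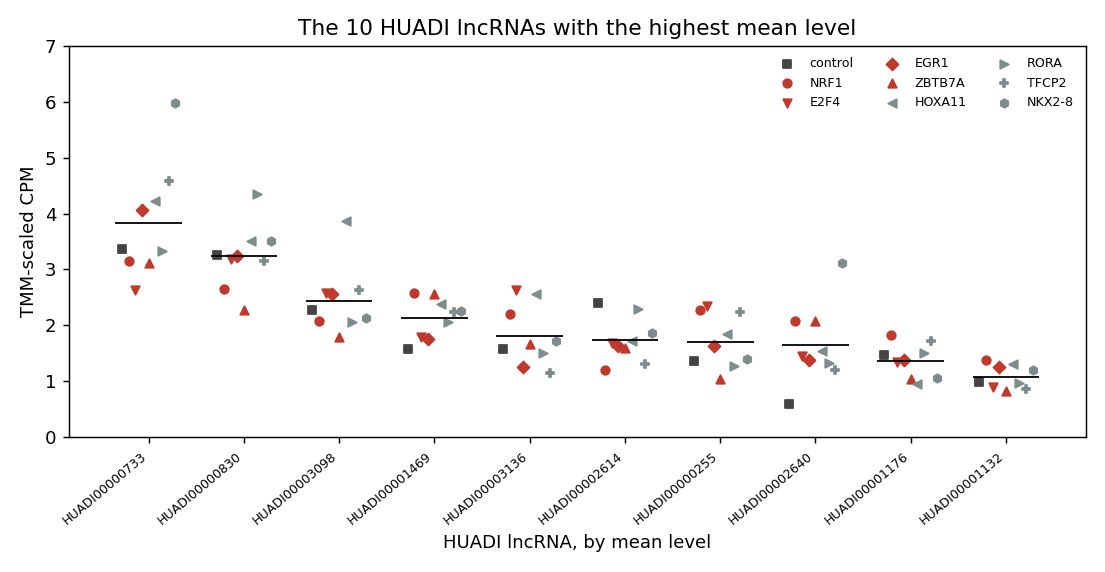
TMM-scaled CPM (vertical axis) of the 10 HUADI lncRNAs with the highest mean level (horizontal axis), with 1 point per library (black the control library, red CLB_TF libraries, grey control TF libraries) and a line at the mean of the 9 libraries. The points of most lncRNAs scatter around the line, and for HUADI00002640 the control library lies below all 8 TF libraries.

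Changed genes were those with a 2-fold difference or more to the control library, at a prior count of 2, that had 1 CPM or more in whichever library was higher. Of the 28 HUADI lncRNAs that reached 1 CPM anywhere, 12 changed in at least 1 TF library. They gave 20 calls, all of them rises. The share of all genes that changed in at least 1 TF library was not taken, so 12 of 28 describes these members only. A member that reached 1 CPM only in the library where it is high was measured because of that value, which favours a rise. The shares below are thus over few genes that passed a minimum, not over all members. In the NRF1 library 4 of 17 measured members rose and 0 fell, against a background over all genes of 8.24% that rose and 0.235% that fell. In the E2F4 library 6 of 17 rose and 0 fell (background 3.68% and 0.261%), and in the EGR1 library 2 of 15 rose and 0 fell (2.5% and 0.28%). In the ZBTB7A library 1 of 11 rose and 0 fell (1.92% and 0.439%).
In the control TF libraries 1 to 3 HUADI lncRNAs rose. In the HOXA11 library 2 of 14 rose and 0 fell (background 1.17% and 0.34%), in the RORA library 1 of 14 and 0 (0.522% and 0.393%), in the TFCP2 library 1 of 13 and 0 (0.491% and 0.185%), and in the NKX2-8 library 3 of 16 and 0 (2.83% and 0.879%). The other lncRNAs of the table, which are closer in level, rose in 21.2% of cases in the NRF1 library, 5.60% in E2F4, 5.84% in EGR1, 3.77% in ZBTB7A, 3.20% in HOXA11, 1.77% in RORA, 1.87% in TFCP2 and 6.55% in NKX2-8. These other lncRNAs pool CATG and Ensembl lncRNAs. In the NRF1 library the HUADI share of 23.5% lay between that of CATG lncRNAs (32.8%) and that of Ensembl lncRNAs (17.9%). In the EGR1 library it was 13.3%, against 12.3% of CATG and 4.21% of Ensembl lncRNAs. In the E2F4 library it was 35.3%, against 5.60% of the pool and 8.06% of CATG lncRNAs alone. The NRF1 library was the only TF library in which the CATG share exceeded the HUADI share. HUADI00002640, lowest in the control library with 11 counts, gave the only call in the ZBTB7A and RORA libraries. It also gave 1 of the 2 calls in EGR1 and in HOXA11, and 1 call in NRF1, E2F4 and NKX2-8. The HUADI shares in these libraries thus rest partly on 1 member. All 8 comparisons share the control library.
Against the 7 other TF libraries instead of the control library, 7 of the 20 calls remained, 3 in the NRF1 library and 4 in the E2F4 library. No share over all genes was taken with this reference.

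**Figure D4:**
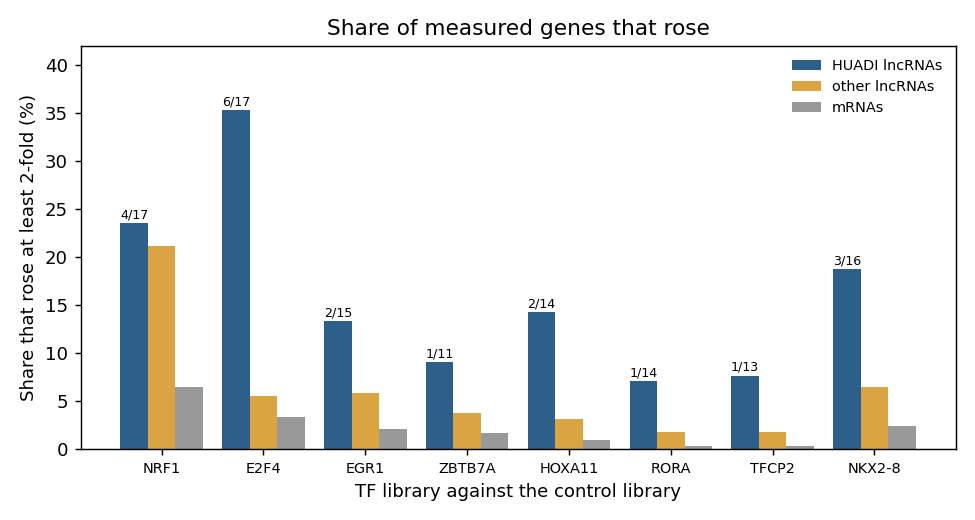
Share of measured genes that rose at least 2-fold (vertical axis, %) in each TF library against the control library (horizontal axis), for HUADI lncRNAs, other lncRNAs and mRNAs. Labels give the number of HUADI lncRNAs that rose and the number measured, from 6 of 17 in the E2F4 library to 1 of 14 in the RORA library.

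The E2F4 library held the largest rises. E2F4 is a cell cycle TF that acts with pocket proteins. HUADI00000154, at chr1:148855845-148866647 on the plus strand, has 3 exons and 1229 bases, and its start is shown above with both E2F matches. It had 0 counts in the control library, 7 in NRF1, 135 in E2F4, 12 in EGR1, 5 in ZBTB7A, 0 in HOXA11, 1 in RORA, 1 in TFCP2 and 3 in NKX2-8. The E2F4 library stood far above the other 8. With the floor of 3 counts in place of 0 in the control library it was 46.3-fold higher, and the lower limit of the 95% interval of the ratio was 37.2. The other 7 TF libraries together averaged 28.5-fold less than the E2F4 library. Copies at 98% identity or more lie elsewhere in GRCh37 for 98.9% of its exon bases, so uniquely mapped reads place it by few differing bases and its position of origin is uncertain. No exon of another gene in the table lay at those copies. NBPF16, the nearest mRNA gene at 97534 bases, had 8 to 16 counts and a log2FC of 0.04 in the E2F4 library.
HUADI00002631, at chr7:64959235-64961544 on the minus strand, has 2135 bases of exon and an A and T rich start with no motif. Its counts were 0 in the control library, 3 in NRF1, 47 in E2F4, 8 in EGR1, 4 in ZBTB7A, 1 in HOXA11, 0 in RORA, 1 in TFCP2 and 1 in NKX2-8. With 3 counts in place of 0 in the control library, the E2F4 library was 16.1-fold higher, and the lower limit of the 95% interval was 12.6. It was 16.04-fold above the average of TF libraries without E2F4. It has 41 copies elsewhere at 90% identity or more, which together cover 100% of its exon bases, but none at 98%.
HUADI00000365, at chr10:51488424-51489098 on the minus strand, has 330 bases and 3 exons behind the CpG-rich start shown above. It had 22 counts in the E2F4 library, 3 in NKX2-8, 2 in NRF1 and 0 in the other 6 libraries, the control library among them. The rise was 7.55-fold with 3 counts in place of 0 in the control library, and the lower limit of the 95% interval was 5.64. HUADI00002628, at chr7:61817795-61819634 on the minus strand, had 20 counts in the E2F4 library, against 2 in the control and 0 to 7 with any other TF. Its ratio was 10.3, with a 95% interval of 2.50 to 90.9, which covers counting error only, as do all intervals given here.
It shares 304 of its 350 exon bases with HUADI00002629 on the opposite strand, which had no count in any library. Its sequence is repeated, with 10 copies elsewhere and 82.6% of its exon bases copied at 98% identity or more. A CATG lncRNA on chromosome 2 whose exon holds a copy at 97.3% identity had 40 counts in the E2F4 library and 0 in the control library. HUADI00002630, at chr7:64778516-64782802 on the plus strand, had 25 counts in the E2F4 library and 11 in the control library, a ratio of 2.34 (1.11 to 5.27). The HOXA11, RORA and TFCP2 libraries had 19 or 20 counts of it, so the E2F4 library was only 1.49-fold above the average TF library without this insert. ZNF92, the nearest mRNA gene of HUADI00002630 and HUADI00002631, had a log2FC of 0.04 in the E2F4 library.

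HUADI00001177 rose the most in the NRF1 library. NRF1 activates nuclear genes of mitochondrial respiration. The lncRNA lies at chr17:65253621-65270082 on the plus strand, has 3129 bases of exon and starts 11516 bases from HELZ, an RNA helicase gene on the opposite strand. It had 5 counts in the control library, 40 in NRF1, 5 in E2F4, 23 in EGR1, 7 in ZBTB7A, 1 in HOXA11, 6 in RORA, 2 in TFCP2 and 18 in NKX2-8. The NRF1, EGR1 and NKX2-8 libraries were high and the other 6 had 7 counts or fewer. The ratio to the control library was 9.28 (95% interval 3.66 to 30.1) for NRF1, 5.28 (1.96 to 17.8) for EGR1 and 4.39 (1.57 to 15.1) for NKX2-8. HELZ had log2FC of 0.15, 0.28 and -0.23 in these 3 libraries. Interspersed copies of its sequence, 1119 at 90% identity or more, covered 41.3% of its exon bases and none reached 98%. With the other 7 TF libraries as the reference, log2FC was 1.95 for NRF1, 0.89 for EGR1 and 0.59 for NKX2-8, so NRF1 alone passed 2-fold.
HUADI00001170, at chr17:58160860-58165702 on the minus strand, 4568 bases from HEATR6, had 19 counts in the NRF1 library, against 5 in the control and 1 to 8 with any other TF. Its ratio in the NRF1 library was 4.41 (1.59 to 15.1), and it has no copy elsewhere. It shares 148 exon bases with the divergent transcript HEATR6-DT on the opposite strand, with 4 counts under NRF1 and 13 in the control. HUADI00000649, at chr12:57477167-57481738 on the minus strand, had 19 counts in the NRF1 library, 6 in the control and 5 to 9 in the others, a ratio of 3.67 (1.41 to 11.2). It shares 5 exon bases with NEMP1, a nuclear envelope gene on the same strand that had a log2FC of 0.15 there.

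HUADI00002640 was raised in most TF libraries. It is a 386-base lncRNA of 2 exons at chr7:76178641-76180833 on the plus strand, with the CpG-rich start shown above. It had 11 counts in the control library, 33 in NRF1, 26 in E2F4, 22 in EGR1, 30 in ZBTB7A, 26 in HOXA11, 22 in RORA, 21 in TFCP2 and 47 in NKX2-8. The control library was the lowest of the 9. The calls covered 7 TF libraries, with ratios from 2.22 (1.03 to 5.08) for RORA to 5.21 (2.67 to 11.1) for NKX2-8, and the TFCP2 library had a log2FC of 0.88. With the other TF libraries as the reference instead, the ratios were 0.724 to 1.97 and none passed 2-fold, and log2FC turned negative for E2F4, EGR1, HOXA11 and RORA (-0.43 to -0.21). Against the averaged control TF libraries the log2FC was 1.13 in NKX2-8, still past 2-fold, and 0.20 or lower in the other 6 libraries with a call. Copies elsewhere cover 86.8% of its exon bases at 90% identity or more, at exons of POM121, POM121C and PRKRIP1, which had log2FC of -0.21 to 0.34 in those libraries.
The remaining calls were single and small. HUADI00000610, at chr12:9566909-9567535, is the shortest HUADI lncRNA with a mean of at least 0.5 CPM, at 234 bases. It had 17 counts in the HOXA11 library, against 7 in the control and 2 to 14 with any other TF, a ratio of 2.66 (1.05 to 7.58). HUADI00001796, at chr22:38475697-38476782 within the span of SLC16A8, had 19 counts in the TFCP2 library, 7 in the control and 4 to 14 in the others, a ratio of 2.86 (1.15 to 8.05), and SLC16A8 had no count in any library. HUADI00000613, at chr12:10972095-10983770 on the minus strand, is the longest member with a mean of at least 0.5 CPM, at 5802 bases, and shares 234 of them with PRH1 on the same strand, which had 0 to 5 counts. It had 19 counts in the NKX2-8 library, 5 in the control and 4 to 16 in the others, a ratio of 4.64 (1.67 to 15.9).
HUADI00000735, of 257 bases on chromosome 13, starts 423 bases from the start of FGF9, a growth factor gene on the opposite strand, and had 2 to 15 counts, the most in the control library. It passed 2-fold with 1 CPM in no TF library. No mRNA gene nearest to a changed member changed in the same library. For the 4 of them with a level of at least 1 CPM, NEMP1, HEATR6, HELZ and ZNF92, the log2FC in that library was -0.23 to 0.28.

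**Figure D5:**
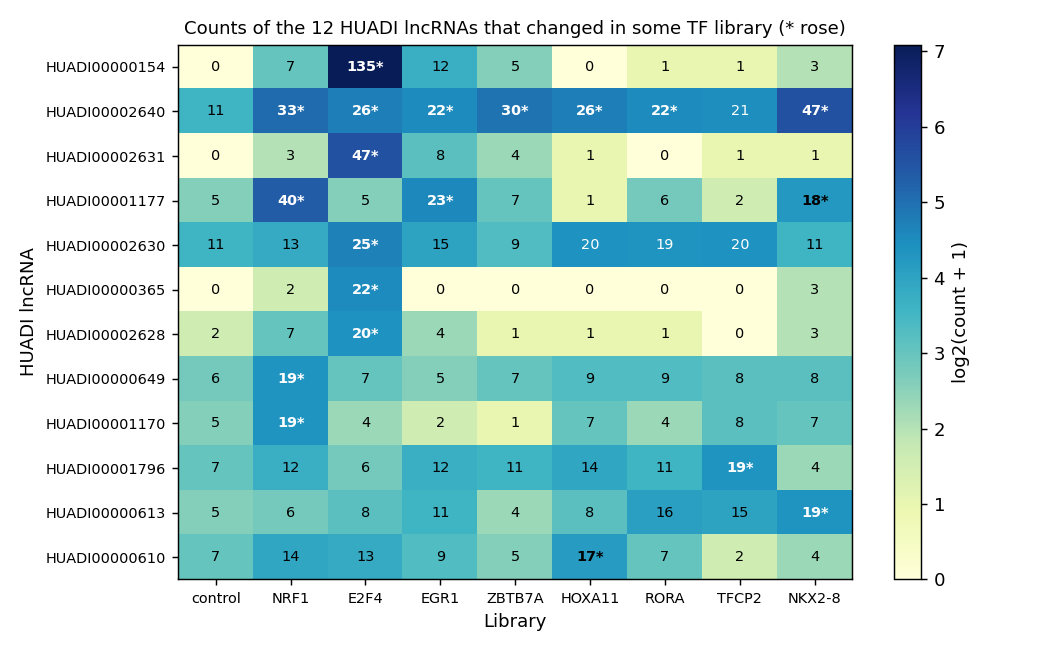
Counts of the 12 HUADI lncRNAs (vertical axis) that rose in some TF library, in each of the 9 libraries (horizontal axis), coloured by log2(count + 1), with an asterisk where the lncRNA rose at least 2-fold and to at least 1 CPM. HUADI00000154 reaches 135 counts in the E2F4 library, and the row of HUADI00002640 carries 7 asterisks beside 11 counts in the control library.

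The 4 CLB_TF libraries were also set against the 4 control TF libraries, with the control library left out and the TFs of a class in place of replicates. No HUADI lncRNA differed among the 25 that passed edgeR's expression filter, by its quasi-likelihood test with Benjamini-Hochberg adjustment, and 6 of 15012 genes did (0.04%). At an unadjusted edgeR p under 0.05 there was 1 of the 25 HUADI lncRNAs, against 1531 of the 15012 genes. DESeq2 called 1 of 98 HUADI lncRNAs, against 161 of 18045 genes. In the edgeR fit the median log2FC of the 25 was -0.03, against 0.00 over all genes tested, with 11 higher in the CLB_TF libraries. HUADI00000613 had the smallest adjusted p in edgeR, 0.436, with a log2FC of -0.95, from 4 to 11 counts in the CLB_TF libraries and 8 to 19 in the control TF libraries. HUADI00000733 had a log2FC of -0.47 with 45 to 65 against 55 to 90 counts (edgeR adjusted p = 0.489), and HUADI00000830 had -0.34 with 33 to 57 against 53 to 72 counts (edgeR adjusted p = 0.566). The counts of each of these 3 overlapped between the classes.
The filter kept out members with too few counts in too many libraries, among them those high mainly in 1 library. With no filter, edgeR called 4 of 718 HUADI lncRNAs, against 795 of 35115 genes. The 4 were HUADI00000154, HUADI00002631, HUADI00002628 and HUADI00001177, each higher in the CLB_TF libraries, as were 722 of the 795 genes. HUADI00000154 had 5 to 135 counts in the CLB_TF libraries and 0 to 3 in the control TF libraries, and HUADI00002631 had 3 to 47 against 0 or 1. With DESeq2, HUADI00002631 alone was called (DESeq2 adjusted p = 0.0363). Most of the counts of HUADI00000154, HUADI00002631 and HUADI00002628 came from the E2F4 library, so these calls rest largely on 1 library.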

How the data were processed

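RNA-seq was done on 293T cells, with 1 library for each of 9 conditions. For the authors' pipeline, FastQC 0.11.2 served for quality control, STAR 2.6.0c for mapping read pairs (genome GRCh37) and featureCounts 1.6.3 for counting, with unique mappers only. The deposited values are these raw counts, not normalized, and no other columns of per-sample values were present. Names and mRNA status came from GENCODE 44lift37, whereas the study used GENCODE 28lift37, FANTOM5 and its own catalogues. For extraction the methods name a miRNeasy kit and the labels TRIzol.

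CPM used TMM factors from edgeR 4.0.16 under R 4.3.3, and log2FC used a prior count of 2, or 5 for ranking. Genes changed at 2-fold or more where the higher library had at least 1 CPM. The 95% intervals of ratios are exact conditional binomial ones, and 3 counts stood in for 0. Such comparisons have no p-value, since each condition had 1 library. The TF classes were compared by edgeR's quasi-likelihood test after its expression filter, fitted over all genes, at an adjusted p of 0.05, and the test was checked on simulated counts. Its p-values measure the spread between TFs, not between repeated cultures. Copies elsewhere were searched with blastn 2.17.0 at 90% identity or more over at least 100 bases. Overlaps were found with bedtools 2.31.1.

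The named lncRNAs were the 10 of highest mean CPM, for each TF library the 3 largest rises and 2 largest falls, the 3 smallest p of the class comparison, and the 3 longest and 3 shortest with a mean of at least 0.5 CPM. HUADI00002630 and HUADI00002628 complete a count of 6 and were added after their values were seen, as was HUADI00000649. The members and lists were chosen with earlier results of these data known. Alternatives were other scalings (library totals, DESeq2 1.42.0), minimum levels, prior counts and references, members with no shared exon, at least 3 counts, thinning, no filter, and leaving out each TF library. The start sequence of 1 changed member is not reported here.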

Additional observations from a re-analysis of the deposited data

Results flagged for a closer look

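Dixon's test at the 95% level was applied to 48 groups of 4 libraries, each a TF class for 1 value. It marked 10 values. Chance marks about 1 in 20 groups, a rate that does not apply to members named for their change: HUADI00000154, HUADI00002631 and HUADI00000365 were named for their rise in the E2F4 library and HUADI00001170 for its rise in NRF1, so the choice of members favoured these marks. In the E2F4 library, among the 4 CLB_TF libraries, HUADI00000154 stood apart at 7.56 CPM (others 0.345 to 0.749), HUADI00002631 at 2.63 CPM (0.189 to 0.5), HUADI00000365 at 1.23 CPM (0 to 0.126) and HUADI00001796, on the low side, at 0.336 CPM (0.749 to 0.760). In the NRF1 library HUADI00001170 stood apart at 1.20 CPM (0.0691 to 0.224).
Among the 4 control TF libraries, all HUADI lncRNAs together took 83.5 of every 1000000 counts in the NKX2-8 library, against 72.4 to 72.7 in the other 3. HUADI00002630 was low in the NKX2-8 library at 0.730 CPM (1.14 to 1.19 in the others), and HUADI00000365 had 0.199 CPM there against 0 in the others. HUADI00000649 was low in the TFCP2 library at 0.458 CPM (0.531 to 0.544), and HUADI00002631 was at 0 CPM in the RORA library (0.0572 to 0.0664). The last 3 of these values differ from their group by 3 counts or fewer.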

How the results depend on the processing

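Few counts limit these results, since a member at 1 CPM has about 14 to 19 counts. The number of HUADI lncRNAs that rose depended on the minimum level. Shares over all genes were not taken at these alternative settings, so the counts below describe the members only. Values are given for the CLB_TF libraries (NRF1, E2F4, EGR1, ZBTB7A), then for HOXA11, RORA, TFCP2 and NKX2-8. With no minimum, 463, 393, 442, 407, 364, 377, 393 and 412 members were compared. Of these, 99, 33, 65, 57, 22, 29, 22 and 59 rose and 17, 17, 17, 22, 22, 13, 18 and 20 fell. With 0.5 CPM, 51, 37, 42, 36, 37, 37, 33 and 40 members were compared. Of these, 19, 10, 11, 5, 6, 6, 4 and 12 rose. In each of the E2F4, EGR1 and TFCP2 libraries 1 fell, with 3 in ZBTB7A and 2 in HOXA11. With 2 CPM, 9, 8, 4, 6, 6, 5, 6 and 6 members were compared. Of these, 2 rose in the NRF1 and E2F4 libraries, 1 in NKX2-8 and 0 in EGR1, HOXA11, RORA and TFCP2. With a prior count of 0.5, 1 fell in the RORA and TFCP2 libraries, and with 5, 1 rose in EGR1 and HOXA11 and 0 in RORA. With library totals 1 rose in HOXA11, and with no shared exon 2 rose in NRF1. DESeq2 size factors kept all 20 calls.
With control TF libraries averaged as the reference, 1 rose in EGR1 and HOXA11 and 0 in ZBTB7A, RORA and TFCP2, and 11 of the 20 calls remained. With the mean of the 7 other TF libraries, 0 rose in EGR1, ZBTB7A, HOXA11, RORA and TFCP2 and 1 in NKX2-8, and 1 fell in each of the NRF1, ZBTB7A, HOXA11, RORA, TFCP2 and NKX2-8 libraries. This was HUADI00000154 in all 6, since the E2F4 library was then part of the reference. The log2FC of HUADI00002640 reversed under both references in 4 libraries, to -0.28 and -0.30 in E2F4, -0.36 and -0.38 in EGR1, -0.27 and -0.21 in HOXA11, and -0.52 and -0.43 in RORA. It stayed positive in NRF1 (0.20 and 0.25), ZBTB7A (0.19 and 0.25) and NKX2-8 (1.13 and 0.93), so that the NKX2-8 call remained under the first reference only.
With at least 3 counts, 115 members were detected in the control library, 154 in NRF1, 131 in E2F4, 120 in EGR1, 117 in ZBTB7A, 110 in HOXA11, 121 in RORA, 118 in TFCP2 and 112 in NKX2-8. In the comparison of TF classes edgeR without a filter called 4 of 718 members and 795 of 35115 genes. DESeq2 called 1 of 98 members and 161 of 18045 genes, and edgeR called 0 members when each TF library was left out. No paired analysis was possible because each condition had 1 library.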
